A study of Mus musculus with 6 samples.

Results

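The genes described here are the subunits of the nuclear RNA polymerases, of the Mediator complex and of the Integrator complex, as transcribed in mouse spleen. They were taken by symbol from the deposited count table (Polr1, Polr2 or Polr3 followed by letters, Med followed by a number and at times an l, Ints followed by a number), which gave 77 of 56413 symbols. By complex there were 6 genes particular to RNA polymerase I, 8 to RNA polymerase II, 10 to RNA polymerase III, 7 subunits shared between polymerases, 30 Mediator genes and 15 Integrator genes. The remaining symbol, Polr1has, is the antisense RNA of Polr1h and encodes no subunit, so it is given apart. Libraries came from 3 Top3b-KO samples of total splenocytes and were set against 3 wild-type (WT) samples, sequenced as total RNA after removal of ribosomal RNA. Top3b encodes topoisomerase III-beta, a topoisomerase that acts on DNA and RNA, and the study's question is what its loss does to gene expression in the spleen. The labels give fresh primary cells and the genotype, and name no strain, sex, age, targeted exon or treatment. They do not say whether each library is 1 animal, so p-values measure the spread between these libraries, which may be technical.

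RNA polymerase I makes the large ribosomal RNA precursor, RNA polymerase II makes messenger RNAs and most small nuclear RNAs, and RNA polymerase III makes transfer RNAs and other short RNAs. Mediator carries signals from DNA-bound activators to RNA polymerase II at promoters, and its detachable kinase module regulates that contact. Integrator is bound to RNA polymerase II near promoters, where its endonuclease and its associated phosphatase end transcription early, and it also forms the ends of small nuclear RNAs. These complexes act in nucleated cells generally, though some subunits have alternative versions. Bulk samples of total splenocytes do not show which cells the transcripts came from.

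None of the 77 genes differed between Top3b-KO and WT splenocytes past an adjusted p of 0.05. The test was edgeR's quasi-likelihood test, with p-values adjusted by the Benjamini-Hochberg method across the 18716 genes that entered it. Of all tested genes 0.0107% passed, which was 2 genes. All 77 were tested, at mean levels between 2.36 and 594 CPM (a gene's counts scaled to a common library depth), and their lowest adjusted p was 0.83 by edgeR. DESeq2 and limma-voom also called 0 of the 77. At an unadjusted p under 0.05 there were 3 members by edgeR, 3 by DESeq2 and 4 by limma-voom. Of all tested genes 5.52% had such a p by edgeR, 3.33% by DESeq2 and 5.67% by limma-voom. By edgeR 2 of the members were higher in Top3b-KO (1.83% of all tested genes) and 1 was lower (3.69%). The 3 were Polr3b, Med1 and Med25. The libraries of the genotypes did not overlap for 7 of the 77 genes, 5 of them higher and 2 lower in Top3b-KO, against 11.0% of all tested genes (5.39% higher, 5.63% lower). These shares are close to those of the whole table, and nothing is read from them.

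The intervals show how large a difference could have been, given the spread between these libraries, which may be technical. They concern levels relative to library depth and not RNA per cell. The 95% interval of the fold change, unadjusted for the number of genes, lay inside 1.5-fold in both directions for 76 of 77 members, the antisense Polr1has being the exception, and inside 1.2-fold for 40. Among all 9669 tested genes of at least 10 CPM these shares were 98.2% and 56.0%. The median log2 fold change (Top3b-KO over WT) of the 77 members was -0.0045, with 36 above 0 and 41 below, beside -0.0029 over all tested genes. In bulk samples fewer cells of a type and less RNA per cell cannot be told apart.

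**Figure D1:**
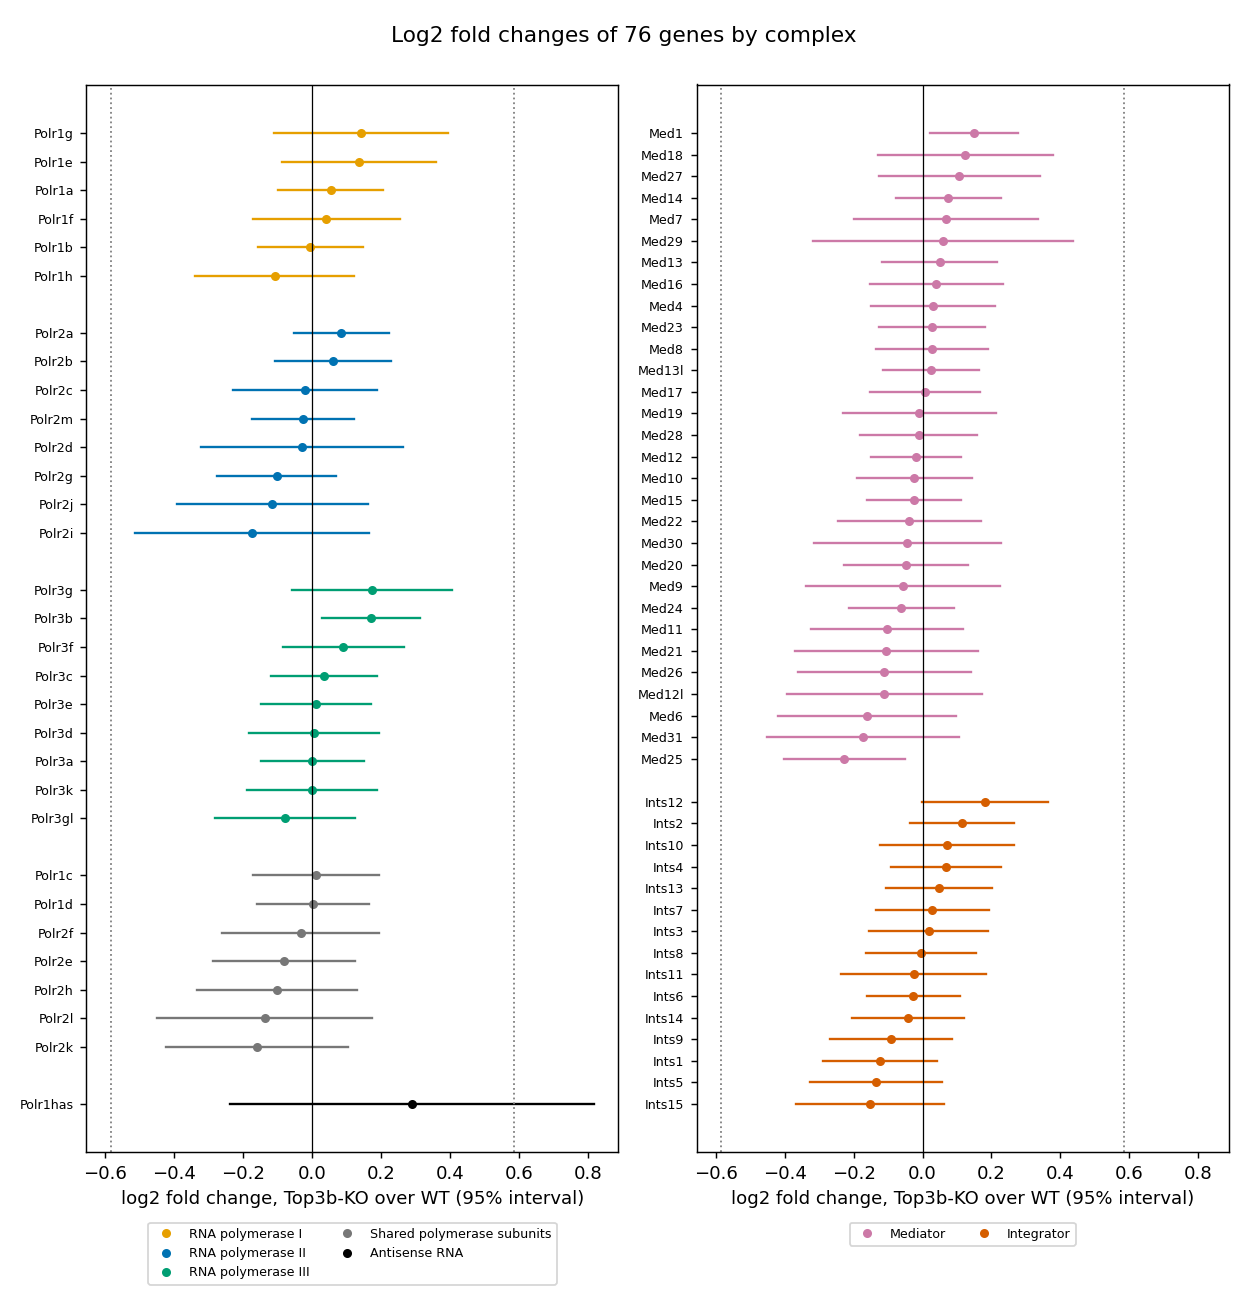
Log2 fold change (Top3b-KO over WT) of 76 genes from edgeR, with its 95% interval as a horizontal line, by complex; dotted lines mark 1.5-fold in either direction. Only the interval of Polr1has crosses a dotted line, and those of Polr3b, Med1 and Med25 do not reach 0.

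Total counts per library ranged from 9941014 to 25473404, lowest in Top3b-KO replicate 3, and a floor of 3 counts was 0.119 to 0.303 CPM. Correlations of log2 CPM across genes between libraries ran between 0.990 and 0.995. Top3b, the targeted gene, had 51.5, 48.2 and 49.7 CPM in Top3b-KO libraries, against 95.1, 86.9 and 91.0 CPM in WT libraries. The log2 fold change was -0.87 (SE 0.071, adjusted p = 5.78e-06 by edgeR). Top3b RNA was thus lower in each knockout library but still present, and counts per gene do not show which exons remain. Summed T cell markers were at 1072 to 1113 CPM in Top3b-KO and 960.3 to 1117 CPM in WT, as the splenocyte label would have it. All 5 markers of this list were detected. Liver markers summed to at most 0.277 CPM in Top3b-KO and 0.524 CPM in WT, with Ttr at 0, and pancreas markers to at most 3.56 CPM in Top3b-KO and 4.26 CPM in WT, with Ins1 at 0. Neutrophil markers ranged widely, at 418 to 1410 CPM in Top3b-KO (highest in replicate 3) and 590.3 to 1044 CPM in WT. Erythroid markers were at 739 to 1088 CPM in Top3b-KO and 926 to 1610.4 CPM in WT (highest in replicate 2). The part of cell mixture in the values below was not tested.

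Sequence before the annotated start is shown for the 3 genes with the smallest p-values, Polr3b, Med1 and Med25. It is also shown for Polr2a, the most abundant polymerase subunit. The RefSeq promoter table (build GRCm38.p6, an older build than the one the reads were aligned to) held 58 of the 77 symbols. Each stretch is the 250 bases before the annotated start, 5′ to 3′ on the gene's strand, with capitals on matches in either direction to CCGGAAG (the core bound by ETS factors), GGGCGG (bound by SP factors), CCAAT or TATAAA. No match overlapped another.
Polr3b (chr10:84622048-84622297, plus strand): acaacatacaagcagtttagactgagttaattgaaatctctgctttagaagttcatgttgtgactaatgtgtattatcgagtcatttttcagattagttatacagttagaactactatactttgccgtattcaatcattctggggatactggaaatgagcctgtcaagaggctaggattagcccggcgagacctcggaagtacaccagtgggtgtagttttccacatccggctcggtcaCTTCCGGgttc
Med1 (chr11:98192907-98193156, minus strand): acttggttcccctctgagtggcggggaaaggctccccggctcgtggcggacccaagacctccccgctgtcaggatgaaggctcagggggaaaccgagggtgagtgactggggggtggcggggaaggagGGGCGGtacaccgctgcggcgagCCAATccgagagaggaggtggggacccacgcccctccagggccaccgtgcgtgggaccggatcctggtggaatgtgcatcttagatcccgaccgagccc
Med25 (chr7:44892425-44892674, minus strand): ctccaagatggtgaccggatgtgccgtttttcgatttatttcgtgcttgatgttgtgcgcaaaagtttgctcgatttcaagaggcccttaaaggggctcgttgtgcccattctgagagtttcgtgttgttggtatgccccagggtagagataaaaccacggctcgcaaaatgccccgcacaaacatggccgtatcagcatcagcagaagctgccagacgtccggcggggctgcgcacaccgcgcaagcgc
Polr2a (chr11:69758634-69758883, minus strand): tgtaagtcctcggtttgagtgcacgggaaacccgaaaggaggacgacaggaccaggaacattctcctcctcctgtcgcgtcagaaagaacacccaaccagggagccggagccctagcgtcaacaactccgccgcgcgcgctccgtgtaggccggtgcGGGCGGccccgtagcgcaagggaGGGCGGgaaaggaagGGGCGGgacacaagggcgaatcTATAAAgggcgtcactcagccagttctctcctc

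In Polr3b the single match was CCGGAAG read on the opposite strand, starting 11 bases before the start, in a stretch of 42.4% GC. Med1 had GGGCGG at 122 and CCAAT at 99 bases before the annotated start, at 68.0% GC. Ahead of both matches the Med1 stretch holds an ATG and then GTGAGT, letters common at the start of an intron. It may thus lie inside the gene, after an earlier start, and its matches are not read as promoter elements. Polr2a had GGGCGG at 93, 70 and 55 bases and TATAAA at 33 bases before the start, at 62.8% GC. Med25 held none of these letters in this window, at 54.4% GC. These windows of the 3 genes with the smallest p-values shared no motif of this set, but that of Med1 may not be its promoter.

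Across the 58 promoters, now counted over 300 bases including 50 after the start, CCGGAAG or its reverse complement occurred in 16 (27.6%), against 20.9% of 7427 promoters of tested genes of at least 10 CPM and 9.12% of all 27025 promoters. GGGCGG occurred in 63.8%, against 65.9% of the promoters of expressed genes and 35.9% of all. CCAAT was found in 41.4%, against 38.9% of expressed genes and 37.9% of all, and TATAAA in 8.62%, against 6.80% of expressed genes and 14.2% of all. Median GC content was 60.0%, against 61.0% for expressed genes and 52.7% for all. Among the complexes CCAAT was most frequent for Integrator, in 8 of 10 promoters, against 10 of 26 for Mediator and 6 of 22 for polymerase symbols. These matches are descriptions of letters and not of binding.

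Of the 6 RNA polymerase I genes, 0 passed the test, 4 had log2 fold changes above 0 and 2 below, and the median was 0.047 (0.014 when WT replicate 1 was left out). Polr1a, the catalytic largest subunit, had 137, 137 and 138 CPM in Top3b-KO libraries, against 132, 146 and 119.7 CPM in WT libraries. Its knockout libraries were nearly identical and lay within the spread of the WT libraries, with a log2 fold change of 0.053 (SE 0.072, 95% interval -0.099 to 0.21, adjusted p = 0.96 by edgeR). Polr1b, which forms the active centre together with Polr1a, had 50.2, 47.7 and 49.1 CPM in Top3b-KO libraries, against 48.4, 49.6 and 49.4 CPM in WT libraries. This was the steadiest of the 77 genes, with a coefficient of variation of 1.84% over the 6 libraries, and its log2 fold change was -0.0054 (SE 0.073, 95% interval -0.16 to 0.15, adjusted p = 1.00 by edgeR).

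Polr1e and Polr1g encode the partners of a heterodimer on RNA polymerase I that helps initiation and elongation. Polr1e had 26.3, 25.3 and 31.3 CPM in Top3b-KO libraries, against 28.3, 22.8 and 23.6 CPM in WT libraries. The groups overlapped, and Top3b-KO replicate 3 was the highest of all 6. Polr1g had 11.1, 11.2 and 13.0 CPM in Top3b-KO libraries, against 10.7, 10.4 and 10.6 CPM in WT libraries. Here the knockout libraries lay above the WT libraries, though by little in replicates 1 and 2, and the log2 fold change was 0.14 (SE 0.12, 95% interval -0.11 to 0.39, adjusted p = 0.94 by edgeR). For Polr1e the log2 fold change was 0.14 (SE 0.11, 95% interval -0.087 to 0.36, adjusted p = 0.93 by edgeR). Polr1h, a small subunit tied to RNA cleavage by the polymerase, had 21.4, 21.0 and 16.3 CPM in Top3b-KO libraries, against 20.6, 20.6 and 22.9 CPM in WT libraries. Its lowest value was in Top3b-KO replicate 3, and the log2 fold change was -0.11 (SE 0.11, 95% interval -0.34 to 0.12, adjusted p = 0.95 by edgeR). The antisense Polr1has had 28 to 63 counts in Top3b-KO libraries and 23 to 45 in WT libraries, with a log2 fold change of 0.29 (SE 0.25, 95% interval -0.24 to 0.82, adjusted p = 0.94 by edgeR). The kits named in the protocol keep strand, but the strand setting of the counting is not given, so reads of Polr1h and Polr1has cannot be told apart. Polr1f, of the polymerase stalk, had a log2 fold change of 0.041.

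Among the 8 RNA polymerase II genes 0 passed, with 2 log2 fold changes above 0, 6 below and a median of -0.028, which was -0.089 when Top3b-KO replicate 2 was left out and -0.0039 when Top3b-KO replicate 3 was. Polr2a, the largest subunit, carries the active site and the repeated C-terminal tail whose phosphorylation marks the steps of transcription. It had 592, 590.2 and 604 CPM in Top3b-KO libraries, against 529, 598 and 559 CPM in WT libraries. WT replicate 2 lay among the knockout libraries, and the log2 fold change was 0.084 (SE 0.066, 95% interval -0.054 to 0.22, adjusted p = 0.93 by edgeR). Polr2b, the large subunit that completes the active centre, had 108, 119.7 and 113 CPM in Top3b-KO libraries, against 101, 102 and 124 CPM in WT libraries. The highest library was a WT one, and the log2 fold change was 0.059 (SE 0.080, 95% interval -0.11 to 0.23, adjusted p = 0.96 by edgeR). The groups thus overlapped for both large subunits.

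The 6 smaller subunits had log2 fold changes below 0, none past the threshold. Polr2i, a zinc-binding subunit involved in accuracy, had 4.75, 5.27 and 5.46 CPM in Top3b-KO libraries, against 5.23, 5.44 and 6.66 CPM in WT libraries. Polr2j, which pairs with Polr2c when the enzyme is assembled, had 9.46, 12.04 and 10.02 CPM in Top3b-KO libraries, against 12.3, 11.9 and 10.2 CPM in WT libraries. Groups overlapped for both, at low levels for this complex, and the intervals were wide. For Polr2i the log2 fold change was -0.17 (SE 0.16, 95% interval -0.51 to 0.16, adjusted p = 0.94 by edgeR), and for Polr2j it was -0.12 (SE 0.13, 95% interval -0.39 to 0.16, adjusted p = 0.95 by edgeR). The other 4 genes, Polr2c, Polr2d, Polr2g and Polr2m, had log2 fold changes between -0.10 (Polr2g) and -0.021 (Polr2c).

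The 7 subunits that serve more than 1 polymerase had a median log2 fold change of -0.081, with 2 above 0 and 5 below and 0 past the threshold. The 2 above 0, Polr1c and Polr1d, form the assembly platform of RNA polymerases I and III. Polr1d, the most abundant of the 7, had 49.1, 50.02 and 52.3 CPM in Top3b-KO libraries, against 54.0, 47.5 and 49.4 CPM in WT libraries, with a log2 fold change of 0.0013 (95% interval -0.16 to 0.16). Polr1c had 44.6, 49.4 and 45.1 CPM in Top3b-KO libraries, against 51.1, 45.7 and 41.5 CPM in WT libraries, with a log2 fold change of 0.011 (95% interval -0.17 to 0.19). Neither pair of groups separated. All 5 subunits common to RNA polymerases I, II and III (Polr2e, Polr2f, Polr2h, Polr2k, Polr2l) had log2 fold changes below 0, between -0.16 and -0.034. Polr2k had 10.4, 13.3 and 11.1 CPM in Top3b-KO libraries, against 12.5, 12.5 and 14.3 CPM in WT libraries, and the log2 fold change was -0.16 (SE 0.13, 95% interval -0.42 to 0.10, adjusted p = 0.93 by edgeR). Polr2l had 6.68, 6.57 and 5.46 CPM in Top3b-KO libraries, against 6.59, 7.74 and 6.60 CPM in WT libraries, and the log2 fold change was -0.14 (SE 0.15, 95% interval -0.45 to 0.17, adjusted p = 0.95 by edgeR). Both are small zinc-binding proteins, and in each case 1 or more WT libraries lay inside the knockout range. The table also lists the processed copy Polr2k-ps at 16 to 41 counts per library, so reads of Polr2k may have been split. Median deviations of the 7 genes from their own means were -0.098, 0.054 and -0.031 (log2) in the Top3b-KO libraries, against 0.10, 0.027 and -0.028 in the WT libraries. Top3b-KO replicate 1 and WT replicate 1 were thus the extremes, and without WT replicate 1 the median log2 fold change of these genes was 0.034, the opposite sign.

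RNA polymerase III had 7 of 10 genes above 0, 3 below, a median of 0.022 and 0 past the threshold. The median was -0.00099 without WT replicate 3 and 0.051 without WT replicate 2. Polr3b, the large subunit that shares the active centre with Polr3a, had 105, 114 and 110.0 CPM in Top3b-KO libraries, against 91.7, 102 and 98.4 CPM in WT libraries. All knockout libraries were higher than all WT libraries, which occurred upward for 5.39% of all tested genes. The log2 fold change was 0.17 (SE 0.068, 95% interval 0.027 to 0.31, adjusted p = 0.86 by edgeR), at an unadjusted p of 0.022. With 1 library left out this unadjusted p was above 0.05 in 3 of 6 cases, without Top3b-KO replicate 2, Top3b-KO replicate 3 or WT replicate 1. Polr3a, the catalytic subunit, had 66.9, 66.5 and 66.6 CPM in Top3b-KO libraries, against 66.2, 70.7 and 63.1 CPM in WT libraries. Its groups overlapped, with a log2 fold change of -0.00023 (95% interval -0.15 to 0.15). The difference between the partners was not tested.

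Polr3g and Polr3gl encode alternative versions of 1 subunit of the initiation subcomplex, of which Polr3gl is broadly expressed and Polr3g is known from stem and dividing cells. Polr3g had 14.7, 16.2 and 16.4 CPM in Top3b-KO libraries, against 15.2, 13.0 and 13.5 CPM in WT libraries. Polr3gl had 19.9, 19.4 and 20.5 CPM in Top3b-KO libraries, against 19.6, 21.4 and 22.1 CPM in WT libraries. Groups overlapped for each gene, with a log2 fold change of 0.17 (SE 0.11, 95% interval -0.060 to 0.41, adjusted p = 0.91 by edgeR) for Polr3g and -0.079 (SE 0.096, 95% interval -0.28 to 0.12, adjusted p = 0.96 by edgeR) for Polr3gl. As a share of the summed CPM of the pair, Polr3g made up 42.6%, 45.4% and 44.4% in Top3b-KO libraries, against 43.8%, 37.9% and 37.9% in WT libraries. The mean was 44.1 ± 1.46% in Top3b-KO and 39.9 ± 3.39% in WT (SD, n = 3 each). WT replicate 1 lay inside the knockout range, and the difference of 4.25 percentage points gave a two-sided exact permutation p of 0.2 (0.6 after adjustment over 3 pairs), where 3 against 3 libraries cannot give less than 0.1. Per length of transcript the share was lower, 27.0 ± 1.16% in Top3b-KO and 23.7 ± 2.59% in WT, so Polr3gl was the more abundant version in both. Polr3k, a small subunit needed for termination, had 32.0, 35.3 and 31.6 CPM in Top3b-KO libraries, against 34.4, 30.0 and 34.9 CPM in WT libraries, overlapping throughout. Polr3c, Polr3d, Polr3e and Polr3f had log2 fold changes between 0.0050 (Polr3d) and 0.090 (Polr3f).

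**Figure D2:**
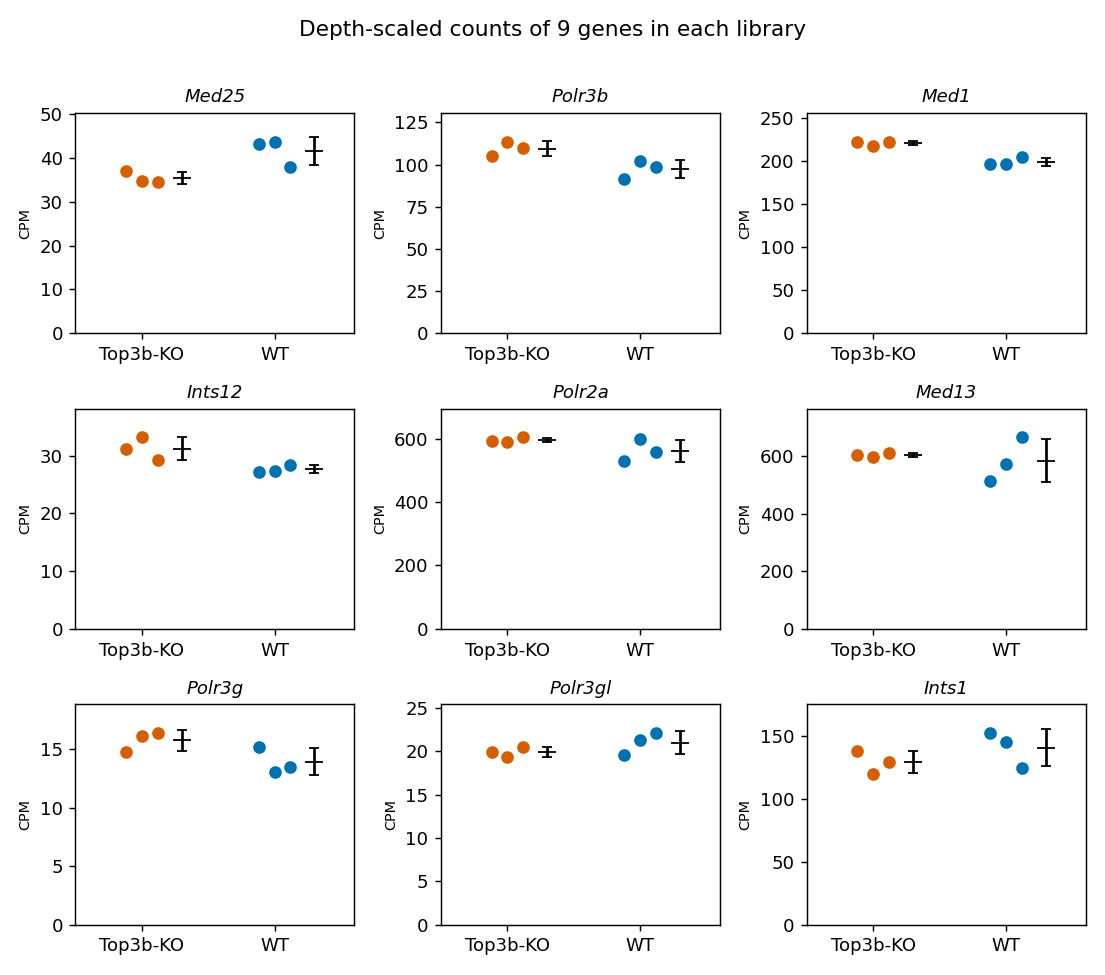
Depth-scaled counts (CPM) of 9 genes in each library, Top3b-KO in orange and WT in blue, with mean and SD over 3 libraries beside each group. Groups separate for Med25, Polr3b, Med1 and Ints12 with none past the threshold, and overlap for Polr2a, Med13, Polr3g, Polr3gl and Ints1.

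Mediator had 13 of 30 genes above 0 and 17 below, a median log2 fold change of -0.015 and 0 past the threshold. The median was above 0 when Top3b-KO replicate 2 (0.0072) or Top3b-KO replicate 3 (0.0030) was left out. Of its modules, the head (7 genes) had a median of -0.038, the middle (9) -0.024, the tail (5) -0.025, the genes on the boundary of head and tail (4) 0.024 and the kinase module (4) 0.0029. None of these medians reached 0.05 in size.

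Med25, a tail subunit that binds activators, had the smallest p-value of all 77 genes. It had 37.2, 34.9 and 34.5 CPM in Top3b-KO libraries, against 43.1, 43.8 and 38.1 CPM in WT libraries. All knockout libraries were lower than all WT libraries, though WT replicate 3 came within 1 CPM of Top3b-KO replicate 1. Med25 averaged 35.5 ± 1.43 CPM in Top3b-KO and 41.7 ± 3.13 CPM in WT (SD, n = 3 each), and the log2 fold change was -0.23 (SE 0.084, 95% interval -0.40 to -0.052, adjusted p = 0.83 by edgeR), at an unadjusted p of 0.014. It ranked 302 of 18716 by p-value. Its unadjusted p was above 0.05 without Top3b-KO replicate 2 or WT replicate 2. The lowest adjusted p of any member under any alternative was also for Med25, 0.14 by edgeR without WT replicate 3, where 13.2% of all tested genes had an unadjusted p under 0.05. The other tail genes Med15, Med16, Med23 and Med24 had log2 fold changes between -0.061 (Med24) and 0.040 (Med16).

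Med1, a middle subunit that contacts nuclear receptors and is a common mark of strong enhancers, had 223, 218 and 223 CPM in Top3b-KO libraries, against 197, 197 and 205 CPM in WT libraries. The knockout libraries were tightly grouped above the WT libraries. Med1 averaged 221 ± 2.58 CPM in Top3b-KO and 199.6 ± 4.60 CPM in WT (SD, n = 3 each), and the log2 fold change was 0.15 (SE 0.061, 95% interval 0.021 to 0.28, adjusted p = 0.86 by edgeR), at an unadjusted p of 0.025. This p was above 0.05 in 4 of 6 cases of 1 library left out, all but those without Top3b-KO replicate 2 or WT replicate 3. In the same module Med31, a small subunit conserved from yeast, had 7.17, 7.49 and 7.08 CPM in Top3b-KO libraries, against 8.01, 8.46 and 8.10 CPM in WT libraries. Its groups were also apart, in the other direction, but at these low levels the log2 fold change was -0.17 (SE 0.13, 95% interval -0.45 to 0.11, adjusted p = 0.93 by edgeR). The other 7 middle genes had log2 fold changes between -0.11 (Med26) and 0.069 (Med7). Med14, the backbone that joins head, middle and tail, had 92.9, 94.9 and 85.9 CPM in Top3b-KO libraries, against 82.5, 84.2 and 93.8 CPM in WT libraries, with a log2 fold change of 0.074 (SE 0.072, 95% interval -0.077 to 0.23, adjusted p = 0.95 by edgeR). In the head module Med18 had 11.8, 12.5 and 11.9 CPM in Top3b-KO libraries, against 9.82, 12.3 and 11.2 CPM in WT libraries, with a log2 fold change of 0.12 (SE 0.12, 95% interval -0.13 to 0.38, adjusted p = 0.95 by edgeR). The knockout libraries of Med18 lay within 0.8 CPM of each other and inside the WT range for 2 of 3. The other 6 head genes lay between -0.16 (Med6) and 0.027 (Med8).

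The kinase module holds the regulatory subunits Med12 and Med13, each with a paralogue, beside the kinases Cdk8 and Cdk19 and their cyclin Ccnc. Med13 was the most abundant of the Mediator genes, with 605, 596 and 611 CPM in Top3b-KO libraries, against 514, 572 and 664 CPM in WT libraries. Its WT libraries spanned a far wider range than its knockout libraries, and the log2 fold change was 0.050 (SE 0.079, 95% interval -0.12 to 0.22, adjusted p = 0.97 by edgeR). Med13l had 253, 232 and 253 CPM in Top3b-KO libraries, against 245, 252 and 228 CPM in WT libraries, with a log2 fold change of 0.024 (95% interval -0.12 to 0.16). Med12 had 231, 230.3 and 234 CPM in Top3b-KO libraries, against 246, 230.0 and 228 CPM in WT libraries, with a log2 fold change of -0.018 (95% interval -0.15 to 0.11). Med12l, the rarer paralogue, had 9.22, 8.52 and 11.2 CPM in Top3b-KO libraries, against 9.88, 11.01 and 9.80 CPM in WT libraries, with a log2 fold change of -0.11 (SE 0.13, 95% interval -0.39 to 0.17, adjusted p = 0.96 by edgeR). All 4 overlapped between genotypes.

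Med13l made up 29.5%, 28.0% and 29.3% of the CPM of the Med13 pair in Top3b-KO libraries, against 32.3%, 30.6% and 25.6% in WT libraries. Med12l made up 3.84%, 3.57% and 4.58% of its pair in Top3b-KO, against 3.87%, 4.57% and 4.12% in WT. Neither share separated the genotypes (two-sided exact permutation p of 0.8 and 0.6, n = 3 each, both 0.8 after adjustment over 3 pairs). The partners Cdk8, Cdk19 and Ccnc had log2 fold changes of -0.037, 0.027 and 0.015, with 0 of 3 past the threshold.

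**Figure D3:**
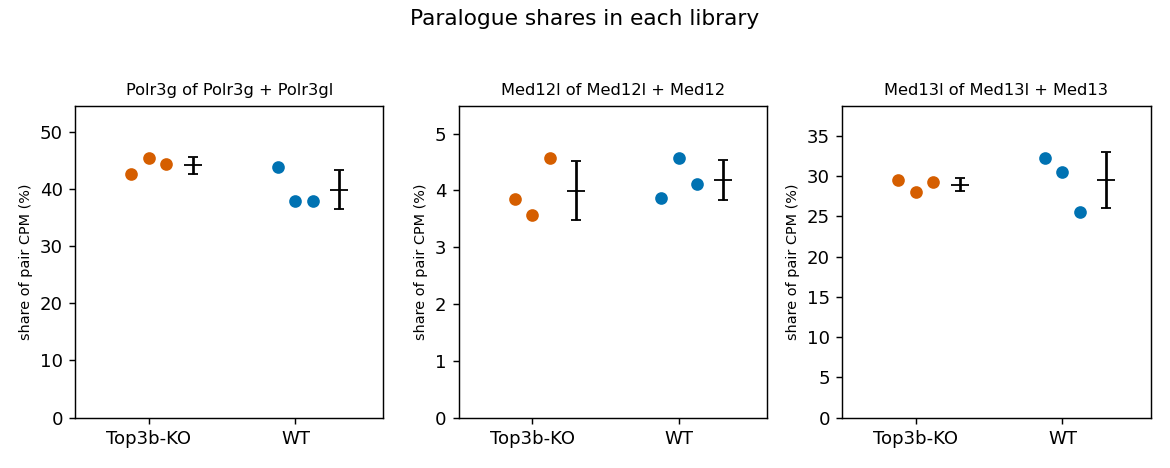
Share of the summed CPM of each paralogue pair held by its less abundant gene, in percent, per library, Top3b-KO in orange and WT in blue, with mean and SD over 3 libraries beside each group. The Polr3g share is 44.1% in Top3b-KO and 39.9% in WT with 1 WT library inside the knockout range, and the other pairs overlap.

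Integrator had 7 of 15 genes above 0 and 8 below, a median log2 fold change of -0.0045 and 0 past the threshold. Leaving out WT replicate 2 gave a median of -0.039, and leaving out Top3b-KO replicate 3 gave 0.013. The 2 highest log2 fold changes were both in its backbone. Ints12, a subunit with a PHD finger, had 31.1, 33.2 and 29.2 CPM in Top3b-KO libraries, against 27.2, 27.3 and 28.4 CPM in WT libraries. Ints2, a large backbone subunit, had 60.3, 57.3 and 55.7 CPM in Top3b-KO libraries, against 52.8, 53.3 and 54.2 CPM in WT libraries. Both were higher in all 3 knockout libraries than in any WT library, by less than 1 CPM between the nearest libraries for Ints12. For Ints12 the log2 fold change was 0.18 (SE 0.087, 95% interval -0.0015 to 0.36, adjusted p = 0.90 by edgeR), and for Ints2 it was 0.12 (SE 0.072, 95% interval -0.035 to 0.27, adjusted p = 0.91 by edgeR). Without Top3b-KO replicate 3, the shallowest library, the log2 fold change of Ints12 was 0.22, still short of the threshold.

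Ints1, the largest backbone subunit and the most abundant of the Integrator genes, had 138, 119.9 and 129 CPM in Top3b-KO libraries, against 152, 145 and 124 CPM in WT libraries. Ints5 had 25.6, 28.4 and 30.2 CPM in Top3b-KO libraries, against 31.3, 31.6 and 29.1 CPM in WT libraries. Both overlapped between genotypes, with a log2 fold change of -0.12 (SE 0.079, 95% interval -0.29 to 0.041, adjusted p = 0.91 by edgeR) for Ints1 and -0.14 (SE 0.091, 95% interval -0.33 to 0.055, adjusted p = 0.91 by edgeR) for Ints5. The endonuclease is Ints11, which works as a pair with the inactive relative Ints9 on the scaffold Ints4. Ints11 had 33.8, 31.6 and 35.5 CPM in Top3b-KO libraries, against 39.8, 30.5 and 31.9 CPM in WT libraries. WT replicate 1 was the highest, above the other 5 libraries, and the log2 fold change was -0.025 (SE 0.10, 95% interval -0.24 to 0.18, adjusted p = 0.99 by edgeR). Ints9 and Ints4 had log2 fold changes of -0.091 and 0.067. Ints6, which brings in the phosphatase, had a log2 fold change of -0.027 and Ints3 one of 0.018. In the arm module Ints15 had the lowest log2 fold change of the complex. It had 22.8, 20.9 and 23.9 CPM in Top3b-KO libraries, against 27.2, 21.8 and 25.7 CPM in WT libraries, overlapping between genotypes, with a log2 fold change of -0.15 (SE 0.10, 95% interval -0.37 to 0.063, adjusted p = 0.91 by edgeR). Ints10, Ints13 and Ints14 lay between -0.042 (Ints14) and 0.071 (Ints10). Of 8 further Integrator partners (Ints6l, Nabp1, Nabp2, Inip, Sem1, Ppp2r1a, Ppp2ca, Brat1) 0 passed, with a median of -0.021. Ppp2ca, the catalytic subunit of the phosphatase, had the smallest p of these, at a log2 fold change of 0.065 (SE 0.065).

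Per length of transcript, the spread of levels within a complex differed between complexes. Lengths (longest coding transcript in GENCODE M21) were known for 72 members (93.5%). Polr2a was the highest, at 88.4 CPM per kb in Top3b-KO and 83.4 CPM per kb in WT, and Med12l the lowest, at 0.877 CPM per kb in Top3b-KO and 0.930 CPM per kb in WT. Over the 6 libraries the highest member stood 16.4-fold above the lowest within RNA polymerase II (Polr2a against Polr2c), 6.27-fold within RNA polymerase III (Polr3c against Polr3g), 10.5-fold among shared subunits (Polr1d against Polr2l), 62.3-fold within Mediator (Med13 against Med12l) and 4.01-fold within Integrator (Ints4 against Ints10). It was 1.67-fold within RNA polymerase I (Polr1a against Polr1e), where only 3 genes had a length. The length of the transcript actually used is not known here, so neighbouring ranks should not be read as ordered. The fitted fold change between genotypes was within 1.2-fold for 76 of all 77 genes. The same held for 9475 of 9669 tested genes of at least 10 CPM and 15657 of all 18716 tested genes. It is thus not particular to these complexes.

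**Figure D4:**
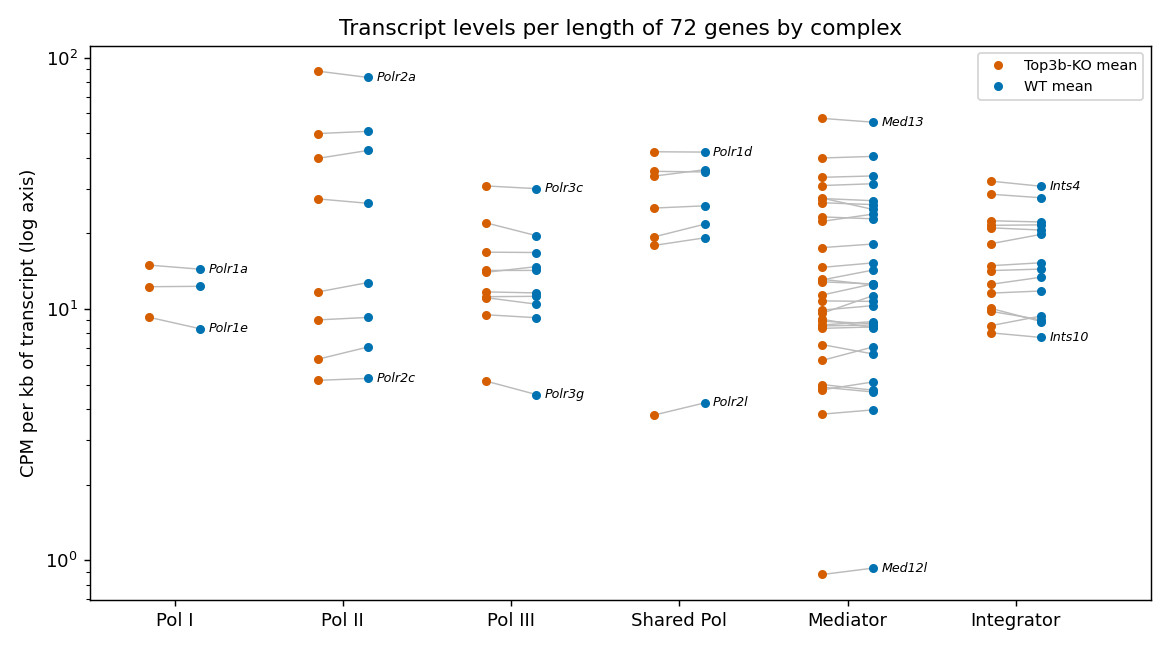
Mean CPM per kb of transcript of 72 genes, on a log axis, by complex, with the Top3b-KO mean on the left (orange), the WT mean on the right (blue) and a line joining each gene. Lines are close to level, while genes of 1 complex spread over up to 62.3-fold; names mark the highest and lowest gene of each complex.

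Summed over a complex, CPM was 899 ± 8.04 in Top3b-KO and 868 ± 39.8 in WT for RNA polymerase II, 475 ± 11.8 in Top3b-KO and 456 ± 10.04 in WT for RNA polymerase III, 2095 ± 26.2 in Top3b-KO and 2061 ± 62.7 in WT for Mediator, and 1013 ± 7.58 in Top3b-KO and 1016 ± 15.1 in WT for Integrator (SD, n = 3 each). The groups overlapped in each of these sums. The sum of all 77 genes was 4972, 4982 and 4980 CPM in Top3b-KO, against 4815, 4924 and 4942 CPM in WT, a ratio of 1.02 with no overlap. As a share of all counts in the table, without the depth-scaling factors, the same genes held 0.495%, 0.494% and 0.495% in Top3b-KO and 0.483%, 0.492% and 0.496% in WT, which overlapped. The sums of RNA polymerase II and Mediator rest heavily on 1 gene each, Polr2a giving 65.5% of the first and Med13 28.6% of the other.

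The members' log2 fold changes varied with transcript length. Of 24 members with transcripts up to 2000 bases 7 were above 0 (29.2%, median -0.068), of 27 over 2000 and up to 4000 bases 11 (40.7%, median -0.0054), and of 21 over 4000 bases 15 (71.4%, median 0.029). Large subunits such as Polr2a, Med1 and Polr3b are in the last class, and the small shared subunits in the first. Over all tested protein-coding genes the shares in the same classes were 34.5%, 46.7% and 59.7%, so the slope was not limited to this machinery. Across the 72 members Pearson's r of log2 fold change with log2 length was 0.41 and Spearman's rho 0.43. Across 12667 tested protein-coding genes, taken without a CPM floor, they were 0.17 and 0.22. The median SE was 0.087 for all 77 members and 0.135 for all tested genes, so the sizes of these correlations are not like for like. These are descriptions across genes that share the same 6 libraries. By library, the short members deviated from their own means by -0.044, 0.018 and -0.018 (median log2) in Top3b-KO, against 0.045, 0.035 and 0.0047 in WT, and the long members by 0.030, 0.026 and 0.018 in Top3b-KO, against -0.063, -0.019 and -0.035 in WT. WT replicate 1 was the extreme in both classes. Without it 9 short members and 13 long members were above 0, and over all cases of 1 library left out these counts were 5 to 9 and 13 to 17. The part of RNA quality or library preparation in this slope was not tested.

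**Figure D5:**
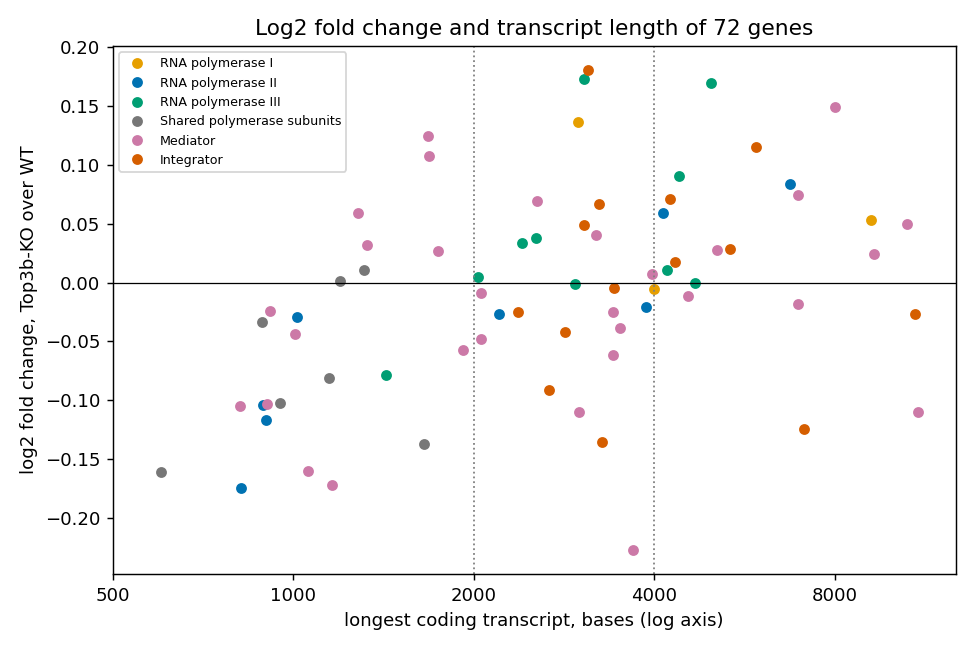
Log2 fold change (Top3b-KO over WT) of 72 genes against the length of the longest coding transcript in bases, on a log axis, coloured by complex; dotted lines mark 2000 and 4000 bases. Of the 24 genes left of the first line 7 lie above 0, and of the 21 right of the second line 15 do.

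Other genes of transcription, in 7 lists with 102 of 103 symbols tested, also gave 0 past the threshold in either direction. The untested symbol, Grinl1a, was absent from the count table and is an older name of the member Polr2m. The median log2 fold change was 0.052 for initiation and elongation factors of RNA polymerase I (7 genes). It was 0.037 for the RNA polymerase III list (18), which held initiation factors, the repressor Maf1 and Crcp. Crcp is itself a subunit of RNA polymerase III, left out of the members because its symbol does not match the rule. For RNA polymerase II the median was 0.023 for general factors (30) and 0.028 for pausing and elongation factors (25). Its assembly factors and tail phosphatases had a median of 0.056 (11 tested). The smallest p of the RNA polymerase III list was that of Bdp1, a subunit of its initiation factor, with 237, 239 and 235 CPM in Top3b-KO libraries, against 229, 207 and 221 CPM in WT libraries. Its knockout libraries lay above its WT libraries, at a log2 fold change of 0.11 (SE 0.064, 95% interval -0.020 to 0.25, adjusted p = 0.91 by edgeR). Rtf1, an elongation factor, had 108, 110.0 and 114 CPM in Top3b-KO libraries, against 102, 104 and 97.6 CPM in WT libraries, also without overlap, at a log2 fold change of 0.12 (SE 0.065, 95% interval -0.014 to 0.26, adjusted p = 0.91 by edgeR). Taf10, of the general factor that recognises promoters, had 41.5, 39.6 and 39.9 CPM in Top3b-KO libraries, against 41.8, 48.2 and 43.8 CPM in WT libraries, lower in each knockout library than in any WT library, at a log2 fold change of -0.15 (SE 0.081, 95% interval -0.31 to 0.023, adjusted p = 0.91 by edgeR). Gpn3, which helps bring RNA polymerase II into the nucleus, had 23.1, 23.9 and 23.6 CPM in Top3b-KO libraries, against 27.9, 24.2 and 27.0 CPM in WT libraries, likewise without overlap, at a log2 fold change of -0.17 (SE 0.092, 95% interval -0.36 to 0.027, adjusted p = 0.91 by edgeR). Taf1d, of the RNA polymerase I promoter factor, had 202, 210.4 and 198 CPM in Top3b-KO libraries, against 173, 177 and 212 CPM in WT libraries, overlapping, at a log2 fold change of 0.12 (SE 0.075, 95% interval -0.038 to 0.28, adjusted p = 0.91 by edgeR). Over all lists the genotypes did not overlap for 10 of 102 genes (9.80%), 6 higher and 4 lower in Top3b-KO, beside 11.0% of all tested genes. The 6 higher genes were 5.88% of the 102, beside 5.39% of all tested genes. By list they were 2 of 18 for RNA polymerase III, 2 of 30 for general factors, 1 of 25 for pausing and elongation, 1 of 11 for assembly and 0 in the remaining lists. These shares are close to that of the whole table or rest on few genes, and nothing is read from them.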

How the data were processed

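RNA of 3 Top3b-KO and 3 WT splenocyte samples was measured by total RNA sequencing. The authors deposited 1 table of expected counts, with 1 row a gene symbol. Alignment was with STAR on mm39, per the submitters' processing notes, while the counter, its annotation and its strand setting are not given. Values that were not whole (tolerance 1e-06) occurred for 72 symbols, none of them a member, and all values were rounded. No library pair agreed within sampling noise.

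After edgeR's filterByExpr, 18716 genes entered a two-sided quasi-likelihood test (TMM scaling, robust fit, genotype alone in the model), with Benjamini-Hochberg adjustment across them. The test was checked on 1 run of simulated data with planted changes of 1.5-fold or more. Smaller changes were not checked. Shares within paralogue pairs were tested by exact permutation, two-sided. The software was edgeR 4.0.16 under R 4.3.3, with DESeq2 1.42.0 and limma 3.58.1 for alternatives. Errors on CPM are SD over 3 libraries, and floors cover counting error only. Lengths came from GENCODE M21.

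The members and lists were chosen with earlier results of these data known. Named were the largest and catalytic subunits, Med14, Med1, Ints1, the paralogue pairs, in each complex the gene of highest CPM, the 2 highest and 2 lowest log2 fold changes and the smallest p, and in each further list the smallest p. Other members named, the length classes and the motifs were chosen after values were seen. Alternatives changed scaling, filter, test, dispersion, replicate block and libraries. Of the members, 1 is counted in the totals and not reported by name here.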

Additional observations from a re-analysis of the deposited data

How the results depend on the processing

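Under all 13 alternatives 0 members passed the threshold. Of 429 values for 33 named members 399 kept their direction, and 30, of 10 genes, reversed. Beside 2 genes over the whole table, 44 passed with no filter, 6 with DESeq2, 1 each with limma-voom and robust=FALSE, 41 with the replicate block and 1 to 32 with a library left out (32 without WT replicate 3). Libraries of the same replicate number had correlations of deviations of 0.18, -0.014 and 0.014. For Top3b-KO replicate 1 the same WT number gave the highest correlation. Top3b-KO replicate 2 was highest with WT replicate 3 (0.093), and Top3b-KO replicate 3 with WT replicate 2 (0.093). So few libraries cannot show whether any were paired, by number or otherwise. The RNA polymerase I median was 0.056 with no filter, 0.059 by limma-voom, 0.054 with the replicate block and 0.014 to 0.052 with a library left out. Left-out libraries moved the other medians to between -0.089 and -0.0039 for RNA polymerase II, -0.00099 and 0.051 for RNA polymerase III, -0.039 and 0.013 for Integrator, -0.13 and 0.034 for shared subunits, -0.030 and 0.0072 for Mediator and -0.021 and 0.0050 for all members. The Integrator median also changed sign with no filter (0.0038) and by limma-voom (0.0018), and that of all members with no filter (0.0038). Reversed log2 fold changes were 0.0031 (Polr1b), 0.0082 (Polr3a) and 0.0073 (Polr3k) with no filter, -0.0012 (Polr1d), 0.0017 (Polr3a) and 0.0053 (Polr3k) by limma-voom, 0.000050 (Polr3a) with RLE factors, 0.00012 (Polr3a) by DESeq2 and 0.0011 (Polr3k) with the replicate block. With 1 library left out the log2 fold change ran from -0.058 to 0.0093 for Cdk8, -0.098 to 0.098 for Ints11, -0.039 to 0.013 for Med12, -0.036 to 0.15 for Med13, -0.017 to 0.071 for Med13l, -0.016 to 0.13 for Polr1a, -0.019 to 0.020 for Polr1b, -0.060 to 0.089 for Polr1c, -0.038 to 0.053 for Polr1d, -0.039 to 0.044 for Polr3a, -0.068 to 0.040 for Polr3k. A further 16 named members kept their sign and moved by over 1.5 times, from -0.21 to -0.067 for Ints1, -0.24 to -0.087 for Ints15, -0.18 to -0.063 for Ints5, -0.21 to -0.018 for Med12l, 0.036 to 0.13 for Med14, 0.042 to 0.20 for Med18, 0.053 to 0.24 for Polr1e, 0.079 to 0.19 for Polr1g, -0.17 to -0.014 for Polr1h, 0.040 to 0.13 for Polr2a, 0.0032 to 0.16 for Polr2b, -0.24 to -0.060 for Polr2i, -0.23 to -0.024 for Polr2j, -0.28 to -0.068 for Polr2k, -0.18 to -0.058 for Polr2l, -0.13 to -0.042 for Polr3gl. The difference in share ran from -0.48 to 0.024 percentage points for Med12l and from -2.51 to 0.85 percentage points for Med13l. The cause was not tested. Depth limits Top3b-KO replicate 3 most.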
